A study of Homo sapiens with 208 samples.

Results

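Wnt ligands are secreted, lipid-modified glycoproteins, and 10 of the genes that encode them were followed here in the lung adenocarcinoma line PC9 and in PC9M2, a gefitinib-resistant line derived from it. The genes were WNT3, WNT3A, WNT4, WNT5A, WNT5B, WNT6, WNT7A, WNT7B, WNT9A and WNT10A, out of 16961 genes with a probe on the array. They were chosen by name, through the transcript accession that the array design gives each probe, and the rule itself uses no measured value. The list of names was, however, drawn up with earlier results of these data known. They had 14 of the 41000 probes, since WNT4, WNT6, WNT7B and WNT10A had 2 each. All 10 were among the 13263 genes tested, which are those whose probe exceeded background clearly on 13 or more arrays of some time course. The largest differences of the ligands were with gefitinib, under which WNT4, WNT10A and WNT3A were higher in both lines.

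A Wnt ligand is acylated in the endoplasmic reticulum by the acyltransferase PORCN, carried to the cell surface by WLS and bound there by a Frizzled receptor together with a co-receptor. With LRP5 or LRP6 as co-receptor the signal stabilizes β-catenin, which enters the nucleus and acts with TCF/LEF factors on target genes such as AXIN2. WNT3, WNT3A, WNT10A and, in many settings, WNT6, WNT7A, WNT7B and WNT9A are classed with this canonical branch. WNT5A and WNT5B mostly act through β-catenin-independent signalling, and WNT4 has been placed in both branches.

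PC9 carries a deletion in the kinase domain of EGFR that keeps the receptor active, and gefitinib inhibits that kinase. PC9M2, which the sample labels call PC9GRM2, is a single line isolated after growth in gefitinib and picked among clones without MET amplification or the resistance mutation in EGFR, so that the values describe this line and not resistant cells in general. Both lines were starved for 48 h and then received no treatment, EGF at 100 ng/ml, gefitinib at 0.5 µM, or both agents. Each of these 8 courses had 26 arrays, 1 for each of 26 time points from 0 to 24 h, and the arrays measured RNA with a single dye. No time point was repeated, so the time points stood in for replicates: each comparison below is a mean of 26 differences at matched time points, tested with limma and called where the Benjamini-Hochberg adjusted p over all tested genes was below 0.05. A level is given as the log2 normalized signal of 1 probe, and it cannot be set against the level of another probe.

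A slide carried 1 line at 1 time point under all 4 treatments, and each treatment always had the same position on the slide, so treatment and position cannot be told apart. Of the slides and scan days 0 were common to both lines, so line and scan period cannot be told apart either. The PC9 arrays had 24755 to 36332 features well above background and 221 to 1702 saturated features, against 26982 to 33937 and 0 on the PC9M2 arrays. All 6 epithelial markers, among them EPCAM and KRT18, were well above background on all 208 arrays, whereas the leukocyte marker PTPRC was so on 1. Of 7 lung lineage markers 5 passed the filter: SCGB1A1 was well above background on 208 arrays, NAPSA on 207 and SFTPC on 206, and NKX2-1, a lung lineage factor that did not pass, on 13. The filter was passed by 0 of the 5 fibroblast markers with a probe, 2 of 5 endothelial and 5 of 6 leukocyte markers. The endothelial marker VWF, on all 208 arrays, moved with the groups: it rose with gefitinib by 1.76 in PC9 and 1.08 in PC9M2 and was lower in untreated PC9M2 (-1.01), while TEK was well above background on 0 arrays. PECAM1, the other endothelial marker that passed, on 207 arrays, fell with gefitinib in PC9 (-0.17) and rose in PC9M2 (0.59). It was lower in untreated PC9M2 too (-1.50). The summed linear signal of the 5 endothelial markers ran from 728 to 1730 in untreated PC9, 840 to 1748 with gefitinib, 299.7 to 519 in untreated PC9M2 and 216 to 1178 with gefitinib. The summed signal of 7 lung lineage markers ran from 418 to 830, 534 to 1355, 279 to 803 and 432 to 1039 in the same courses. The part of these markers in the ligand results was not tested. Since these are bulk samples, a change in the share of cells of one kind and a change in RNA per cell cannot be told apart.

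At 0.5 h in PC9M2 a pair of arrays went against their labels. DUSP6, a negative regulator of ERK that depends on EGFR signalling, was at 7.75 on the array labelled EGF, against 12.00 to 13.89 at the other times, and at 12.54 on the array labelled EGF and gefitinib, against 7.51 to 11.53. SPRY4, another feedback gene of this pathway, was at 5.28 and 10.29 on these arrays, against 9.69 to 11.54 and 4.68 to 9.25 at other times. Of 520 genes that differed by over 1 log2 unit between gefitinib and no treatment at that time, 104 (20%) moved the same way between the 2 arrays labelled EGF with and without gefitinib, against 68.2% to 98.7% in the other 51 pairs of line and time. WNT3A followed the same order, at 5.92 on the array labelled EGF and 4.80 on the array labelled EGF and gefitinib. All comparisons were also run without 0.5 h, which ended 4 calls of a ligand and added 6.

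The bases before the start site are shown for WNT4, WNT10A, WNT3A and WNT6, which share a composition that the choice of members did not use. These ligands rose most with gefitinib, WNT6 only on a probe looked at after the data were seen. By the probe in use WNT6 was not called in most of the gefitinib comparisons. The bases are the 250 upstream of the annotated start, from RefSeq on GRCh38.p14, with GC boxes (GGGCGG on either strand) in capitals. WNT4 lies on the minus strand of chromosome 1, and the bases shown span chr1:22143098-22143347. WNT3A lies on the plus strand of the same chromosome, with chr1:228006748-228006997. WNT6 and WNT10A lie on the plus strand of chromosome 2, with chr2:218859555-218859804 and chr2:218880602-218880851, and 0 protein-coding genes are annotated between them.
WNT4: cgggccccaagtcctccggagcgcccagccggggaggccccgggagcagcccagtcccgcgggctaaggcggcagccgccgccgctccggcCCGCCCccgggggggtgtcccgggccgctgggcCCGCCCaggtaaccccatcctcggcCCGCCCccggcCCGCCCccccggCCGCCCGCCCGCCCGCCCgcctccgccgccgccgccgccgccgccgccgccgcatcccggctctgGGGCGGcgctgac
WNT10A: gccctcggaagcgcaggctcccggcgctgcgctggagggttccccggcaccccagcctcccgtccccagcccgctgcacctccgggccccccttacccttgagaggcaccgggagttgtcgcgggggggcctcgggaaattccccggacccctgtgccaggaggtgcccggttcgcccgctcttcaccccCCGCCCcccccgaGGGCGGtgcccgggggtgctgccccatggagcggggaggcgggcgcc
WNT6: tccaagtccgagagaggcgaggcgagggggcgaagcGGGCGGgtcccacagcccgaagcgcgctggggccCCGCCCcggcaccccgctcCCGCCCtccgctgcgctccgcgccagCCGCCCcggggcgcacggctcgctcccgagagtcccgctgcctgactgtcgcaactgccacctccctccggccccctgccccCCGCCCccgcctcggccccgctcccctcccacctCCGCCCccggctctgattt
WNT3A: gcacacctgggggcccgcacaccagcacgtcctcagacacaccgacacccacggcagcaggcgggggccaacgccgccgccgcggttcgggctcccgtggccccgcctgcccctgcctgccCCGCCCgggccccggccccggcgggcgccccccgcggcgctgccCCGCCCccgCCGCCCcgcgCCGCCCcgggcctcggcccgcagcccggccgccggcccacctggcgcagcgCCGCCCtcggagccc

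Of the 10 ligands, 9 had such a sequence and WNT7B did not. The GC content was 86.8% for WNT4, 77.6% for WNT10A, 79.2% for WNT6 and 86.0% for WNT3A, against a median of 58.0% over 35116 RefSeq promoters. High GC content was not limited to the ligands that rose, with 84.4% for WNT9A and 80.4% for WNT7A, while WNT5A (52.8%) and WNT5B (54.8%) were below the median. GC boxes were matched 9 times before WNT4, 6 before WNT6, 5 before WNT3A and 2 before WNT10A, and 8 of the 9 ligands had at least 1, against 42.6% of all promoters. WNT5B had 0. Both strands were searched, and overlapping matches were counted. An AP-1 motif (TGANTCA, in 6.57% of all promoters), a TCF/LEF motif (CTTTGAA, 3.8%), an E-box (CACGTG, 6.34%) and a cAMP response element (1.65%) matched before 0 of the 9. A FOX motif (GTAAACA, 2.98%) matched before WNT5B alone. These matches describe letters in a window and not bound sites.

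WNT4 and WNT10A rose with gefitinib in both lines, with and without EGF. WNT4, which acts in kidney and female reproductive tract development, had signals between 5.61 and 8.37 (median 7.36) over the untreated PC9 course and between 7.92 and 10.00 (median 9.42) with gefitinib. In PC9M2 the untreated signals lay between 6.32 and 8.24 (median 7.09) and those with gefitinib between 7.31 and 9.22 (median 8.90). The ranges overlapped in both lines. The mean difference was 1.89 ± 0.21 (SE, 26 time points) in PC9, a 3.7-fold rise seen at 24 of 26 time points (adjusted p = 6.38e-09), and 1.49 ± 0.17 in PC9M2, 2.8-fold at 22 of 26 (adjusted p = 1.92e-08). With EGF present the differences were 2.42 ± 0.27 in PC9 and 1.99 ± 0.18 in PC9M2 (adjusted p = 6.29e-09 and 1.58e-10). The difference came from both sides: in PC9 the median fell from 8.20 at 0 to 6 h to 6.83 at 16 to 24 h without treatment and went from 8.50 to 9.46 with gefitinib.

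WNT10A, a ligand of skin appendage and tooth development, followed WNT4 closely. Its untreated signals lay between 6.98 and 8.26 (median 7.74) in PC9 and between 8.79 and 9.74 (median 9.28) in PC9M2. With gefitinib they lay between 7.74 and 10.13 (median 9.56) in PC9 and between 9.18 and 10.98 (median 10.52) in PC9M2, so that the ranges with and without drug overlapped in each line. The gene rose by 1.60 ± 0.18 in PC9 (3.02-fold, 24 of 26 time points, adjusted p = 1.13e-08) and by 1.07 ± 0.12 in PC9M2 (2.09-fold, 22 of 26, adjusted p = 4.74e-09). With EGF present it rose by 1.99 ± 0.22 and 1.29 ± 0.12 (adjusted p = 4e-09 and 2.5e-10). In PC9M2 the rise with gefitinib took the median from 9.71 at 0 to 6 h to 10.54 at 7 to 15 h, while the untreated course went from 9.53 to 9.19. The calls of WNT4 and WNT10A held under each of the 19 alternatives run for them. The second probe of each gene tracked the first, with Pearson's r of 0.92 for WNT4 and 0.94 for WNT10A over 208 arrays.

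Both differences were small at first and opened within hours of the labelled 0 h. The labelled times may not count from the addition of the drug, since at 0 h DUSP6 was already lower with gefitinib. It was at 9.32 against 12.82 untreated in PC9 and at 7.76 against 12.13 in PC9M2, and SPRY4 was lower in both lines too. The time of addition was not tested. The WNT4 difference averaged 0.36 over 0 to 6 h, 2.36 over 7 to 15 h and 2.78 over 16 to 24 h in PC9, and 0.34, 1.85 and 2.14 in PC9M2. It stayed above 0.5 from 4 h to the end in PC9 and from 3 h in PC9M2, and that of WNT10A from 4 h in both lines. The WNT10A difference averaged 0.28, 1.96 and 2.40 in PC9 and 0.37, 1.33 and 1.42 in PC9M2. A straight line through the differences without EGF rose by 0.126 log2 units per h for WNT4 and 0.117 for WNT10A in PC9, and by 0.103 and 0.0591 in PC9M2 (adjusted p = 1.18e-07, 1.5e-09, 6.15e-07 and 8.07e-05). Rising trends were called for 5 ligands in PC9 and falling ones for 0, against 52.2% of all tested genes called, 26.2% rising and 26% falling. In PC9M2 4 rose and 2, WNT7A and WNT9A, fell, against 41.1% of all genes, 20.5% rising and 20.5% falling. Over the last 13 time points alone the slope of WNT4 was no longer called in either line, and that of WNT10A was not called in PC9M2.

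WNT3A, the ligand most often used to switch on β-catenin signalling in culture, was low on the arrays and higher with gefitinib. Its signals lay between 4.36 and 5.91 (median 5.05) in untreated PC9, with 19 of 26 arrays well above background, and between 5.82 and 7.08 (median 6.76) with gefitinib, with 26 of 26. In PC9M2 they lay between 3.69 and 6.05 (median 4.85) without treatment and between 4.78 and 6.63 (median 5.88) with gefitinib, with 15 and 24 of 26 arrays well above background. WNT3A was higher with the drug at all 26 time points in PC9, by 1.51 ± 0.09 (2.84-fold, adjusted p = 2.89e-14), and at 25 of 26 in PC9M2, by 1.00 ± 0.11 (2.01-fold, adjusted p = 9.11e-09). With EGF present the rises were 1.64 ± 0.08 and 1.31 ± 0.14 (adjusted p = 1.56e-16 and 4.21e-09). In PC9 the courses with and without gefitinib in the presence of EGF did not overlap at all (4.15 to 5.49 against 5.80 to 7.28), as for 2.38% of the tested genes. Unlike WNT4 and WNT10A, the difference in PC9 was above 0.5 from the labelled 0 h on, when DUSP6 was already lower with gefitinib. The size depended on the background correction: with the normexp method, which adds an offset of 50, the rises came to between 0.15 and 0.29, still called in all 4 comparisons.

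**Figure D1:**
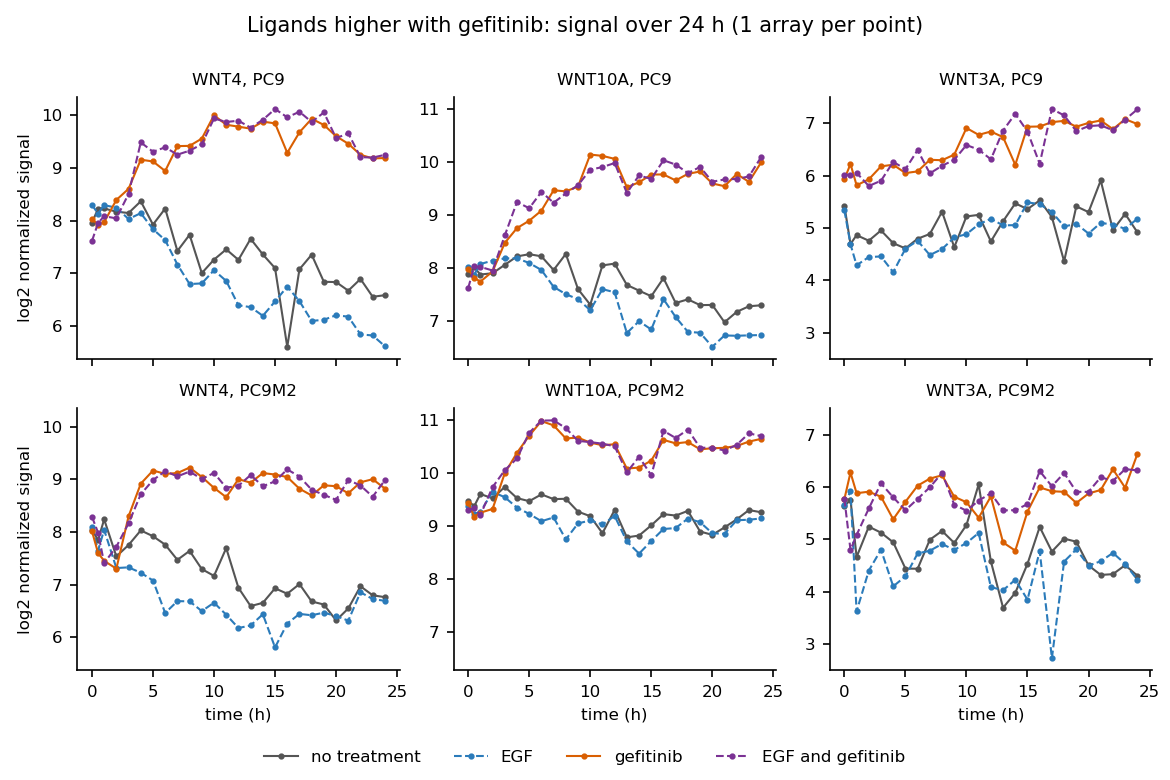
Log2 normalized signal (y axis, scaled per gene) of WNT4, WNT10A and WNT3A against time in h (x axis) in PC9 (top) and PC9M2 (bottom), with 1 array per point and a line for each of the 4 treatments (dashed where EGF was given). The gefitinib courses with and without EGF run together and part from the other courses by 4 h for WNT4 and WNT10A, while WNT3A in PC9 is apart from 0 h.

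WNT6 gave different answers on its 2 probes. The probe used under the rule, the one with the larger variance (A_24_P208513, probe A), had untreated signals between 12.67 and 15.93 (median 14.99) in PC9 and between 10.52 and 15.83 (median 14.02) in PC9M2. By this probe WNT6 did not pass the test with gefitinib in PC9 (0.13 ± 0.14 without and 0.23 ± 0.14 with EGF, adjusted p = 0.402 and 0.134) or without EGF in PC9M2 (0.21 ± 0.12, adjusted p = 0.139), and rose with EGF present there (0.47 ± 0.12, adjusted p = 0.000977). The other probe (A_23_P119916, probe B) was well above background on all 208 arrays, as was probe A, and correlated with it at r = 0.30. On probe B the untreated signals lay between 11.48 and 12.72 (median 12.02) in PC9 and between 9.89 and 11.92 (median 11.16) in PC9M2, and with gefitinib between 12.41 and 14.76 (median 13.91) and between 11.69 and 13.96 (median 13.09). The courses with and without the drug overlapped in both lines. By probe B, looked at after the data were seen, WNT6 was higher with gefitinib by 1.74 ± 0.14 in PC9 and 1.84 ± 0.14 in PC9M2 at 26 of 26 time points each (3.33-fold and 3.57-fold, adjusted p = 2.09e-11 and 1.1e-11). With EGF present the rises were 2.62 ± 0.22 and 2.42 ± 0.20 (adjusted p = 1.87e-11 and 4.45e-11).

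From 10 to 15 h probe A was low in PC9M2 under every treatment, with medians of 10.54 to 11.39 against 14.18 to 14.83 at the other times. These 6 time points were scanned on 2 days that held no other arrays of the line. On probe B the medians in the same windows were 10.73 and 11.46 without treatment and 12.95 and 13.14 with gefitinib. Probe A was also saturated on 8 arrays, all of PC9. The genes most like probe A over the 208 arrays were MEX3D and TNRC18, both at r = 0.98, whereas those most like probe B were BATF and WNT4, at r = 0.94 and 0.93. Other ligands also shifted in this window: the difference between PC9M2 and PC9 with gefitinib was -1.07 at 10 to 15 h against 0.56 at other times for WNT3, -1.62 against 0.12 for WNT7B and -1.72 against -0.57 for WNT7A. What set the 2 probes apart was not tested.

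**Figure D2:**
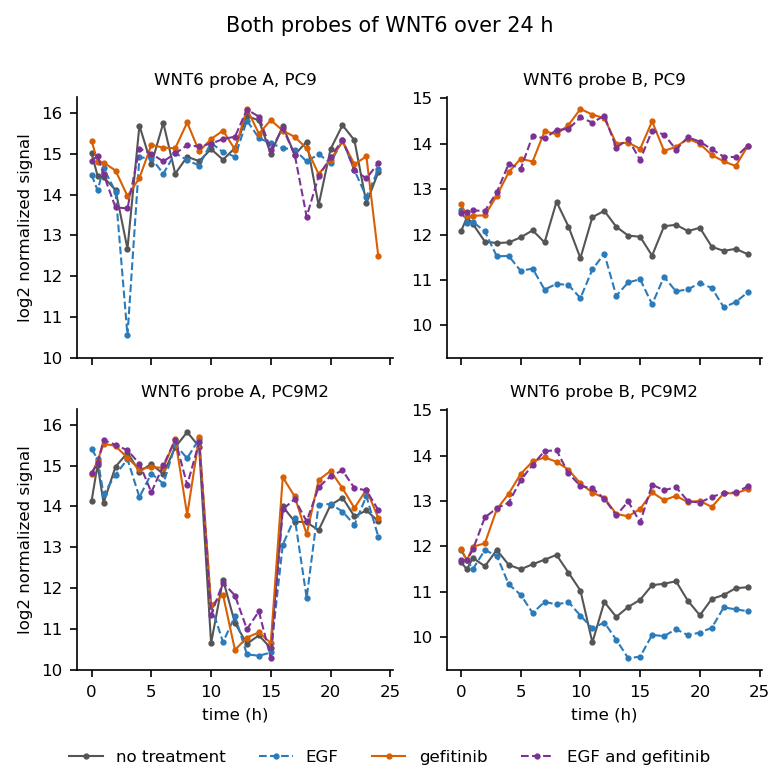
Log2 normalized signal (y axis, scaled per probe) of the 2 probes of WNT6 against time in h (x axis) in PC9 (top) and PC9M2 (bottom), with 1 array per point and a line per treatment (dashed with EGF). Probe A falls to 10.28 to 12.21 on all PC9M2 arrays from 10 to 15 h, while on probe B the medians of the gefitinib courses (13.09 to 13.93) lie above those of the others (10.56 to 12.02).

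WNT7B, a ligand of lung and placental development, and WNT3 rose less and less evenly. WNT7B had 2 probes. The one in use, with the larger variance, was well above background on 118 of 208 arrays, with untreated signals between 2.10 and 4.98 (median 4.14) in PC9 and between 2.20 and 5.67 (median 4.24) in PC9M2. It rose with gefitinib by 1.03 ± 0.23 in PC9 and by 0.27 ± 0.12 in PC9M2 (adjusted p = 0.000233 and 0.0473), and by 1.12 ± 0.22 and 0.34 ± 0.13 with EGF present (adjusted p = 3.19e-05 and 0.025). All courses overlapped. The other probe of WNT7B was well above background on 204 of 208 arrays, with untreated signals between 5.86 and 8.16 (median 6.99) in PC9 and between 5.06 and 9.35 (median 7.34) in PC9M2. It rose with gefitinib by 1.12 ± 0.19 in PC9 and 0.33 ± 0.14 in PC9M2 (adjusted p = 5.1e-06 and 0.0375), and by 1.18 ± 0.21 and 0.57 ± 0.13 with EGF present (adjusted p = 8.24e-06 and 0.000316). On the probe in use the PC9M2 call without EGF was lost under 11 of 18 alternatives, among them the run without 0.5 h. The other calls of that probe with gefitinib were each lost under some alternative too. WNT3 had untreated signals between 9.05 and 10.67 (median 9.70) in PC9 and rose there by 0.45 ± 0.08 and, with EGF, by 0.40 ± 0.06 (adjusted p = 1.98e-05 and 7.26e-07). In PC9M2 it passed the test in the presence of EGF (0.41 ± 0.11, adjusted p = 0.00161), with 0.10 ± 0.11 without it (adjusted p = 0.415). Of these WNT3 calls only that in PC9 with EGF held under every alternative.

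WNT9A and WNT7A went the other way. WNT9A, known from joint and liver development, had signals between 6.23 and 8.24 (median 7.13) in untreated PC9 and between 5.70 and 7.36 (median 6.87) with gefitinib, and between 4.86 and 6.59 (median 5.71) and between 1.98 and 6.96 (median 5.05) in PC9M2. The ranges overlapped, and the lowest PC9M2 value was a single array at 13 h. In PC9M2 the gene was well above background on 18 of 26 arrays with gefitinib and 23 with both agents. Without gefitinib it was so on 25 untreated and 26 EGF arrays, so part of its PC9M2 values with gefitinib lay near background. WNT9A fell with gefitinib in all 4 comparisons, with differences of -0.39 ± 0.10 and -0.73 ± 0.10 in PC9 without and with EGF (adjusted p = 0.0013 and 1.83e-07) and -0.56 ± 0.17 and -0.60 ± 0.12 in PC9M2 (adjusted p = 0.00599 and 5.52e-05). Of these calls only that in PC9 with EGF held under every alternative. In PC9M2 the fall came late: without EGF the difference averaged 0.30 over 0 to 6 h and -1.01 and -0.86 in the later windows, and over the first 13 time points it was 0.05 and not called. On the 4 PC9M2 arrays at 1 h, read with a later version of the design, the WNT9A probe carries another accession.

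WNT7A, an epithelial ligand of limb and female tract patterning, had signals between 9.88 and 11.23 (median 10.80) in untreated PC9M2 and between 8.82 and 11.38 (median 9.91) with gefitinib, which overlapped. It fell there by 0.65 ± 0.11 without and by 0.86 ± 0.13 with EGF on the log2 scale (adjusted p = 5.5e-06 and 8.92e-07). The difference without EGF averaged 0.06 over 0 to 6 h, -0.93 over 7 to 15 h and -0.98 over 16 to 24 h. In PC9, where untreated signals lay between 10.34 and 11.69 (median 10.97), the difference was -0.06 ± 0.10 without EGF (adjusted p = 0.64) and -0.39 ± 0.07 with EGF (adjusted p = 1.15e-05). None of these WNT7A calls held under every alternative.

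The β-catenin-independent ligands WNT5A and WNT5B did not follow either group. WNT5A had signals between 6.48 and 9.01 (median 7.33) in untreated PC9 and between 6.18 and 8.26 (median 7.17) with gefitinib, and fell there, with differences of -0.42 ± 0.09 and, with EGF, -0.53 ± 0.13 (adjusted p = 8.62e-05 and 0.000737). In PC9M2, with signals between 7.25 and 10.16 (median 8.07) untreated, the difference was 0.23 ± 0.13 without EGF (adjusted p = 0.13) and 0.31 ± 0.09 with it (adjusted p = 0.00239), so that in the presence of EGF gefitinib moved the gene in opposite directions in the lines. All these ranges overlapped, and none of these WNT5A calls held under every alternative. WNT5B lay between 7.76 and 9.70 (median 9.03) in untreated PC9 and between 8.09 and 9.29 (median 8.68) in PC9M2 and passed the test with gefitinib in none of the 4 comparisons, with differences from -0.22 to -0.10 (adjusted p between 0.0502 and 0.236). Without 0.5 h the difference in PC9M2 without EGF was -0.21 and called (adjusted p = 0.0456).

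**Figure D3:**
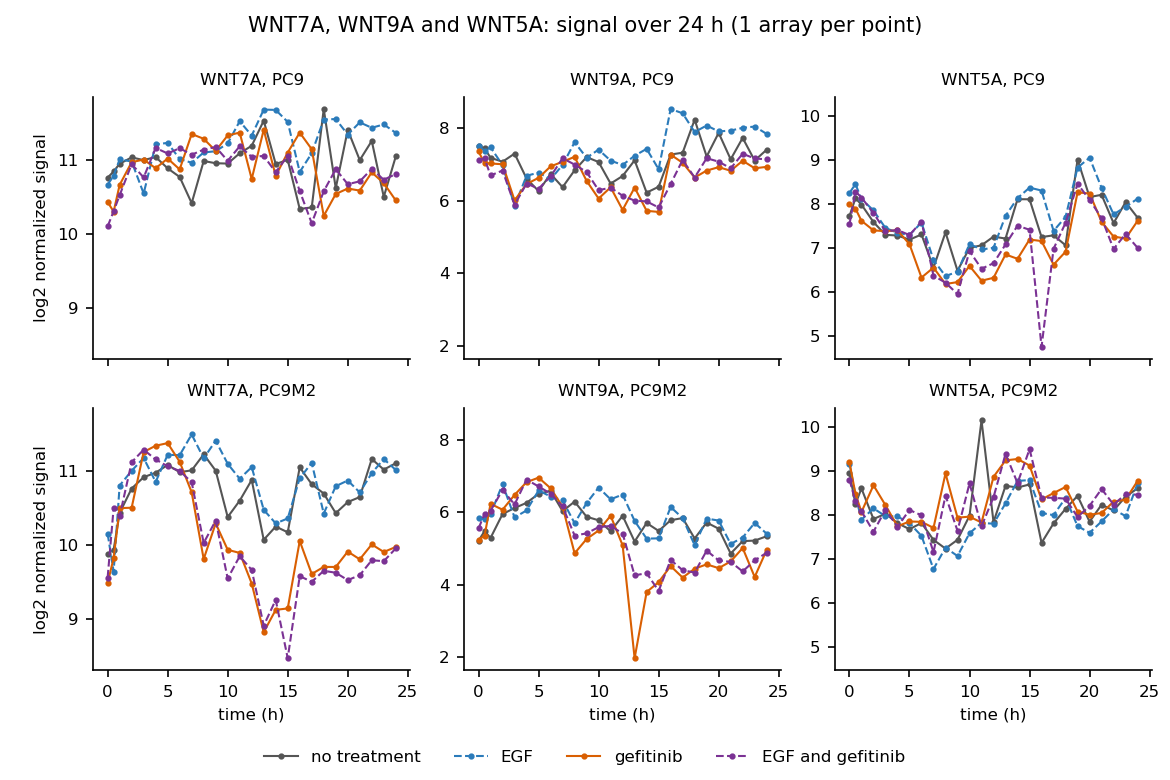
Log2 normalized signal (y axis, scaled per gene) of WNT7A, WNT9A and WNT5A against time in h (x axis) in PC9 (top) and PC9M2 (bottom), with 1 array per point and a line per treatment (dashed with EGF). In PC9M2 the gefitinib courses of WNT7A and WNT9A leave the others after 6 h, and WNT5A lies higher in PC9M2 than in PC9.

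In counts, gefitinib without EGF raised 5 and lowered 2 of the 10 ligands in PC9, where 72.3% of all tested genes were called, 35.1% higher and 37.2% lower. In PC9M2 it raised 4 and lowered 2, where 66.7% of all genes were called, 32.6% higher and 34.2% lower. With EGF the counts were 5 and 3 in PC9 (78.9% of all genes, 39% higher and 39.9% lower) and 7 and 2 in PC9M2 (74.5%, 36.7% higher and 37.8% lower). The share of ligands called was near that of all genes. Their median difference was 0.29, 0.32, 0.22 and 0.37 in these 4 comparisons, against -0.02, -0.01, -0.01 and -0.02 over all tested genes. The split rested on probe A of WNT6, and probe B would add WNT6 to the rises in both lines. The rises include WNT7B, whose probe in use passed the filter only through the gefitinib courses.

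**Figure D4:**
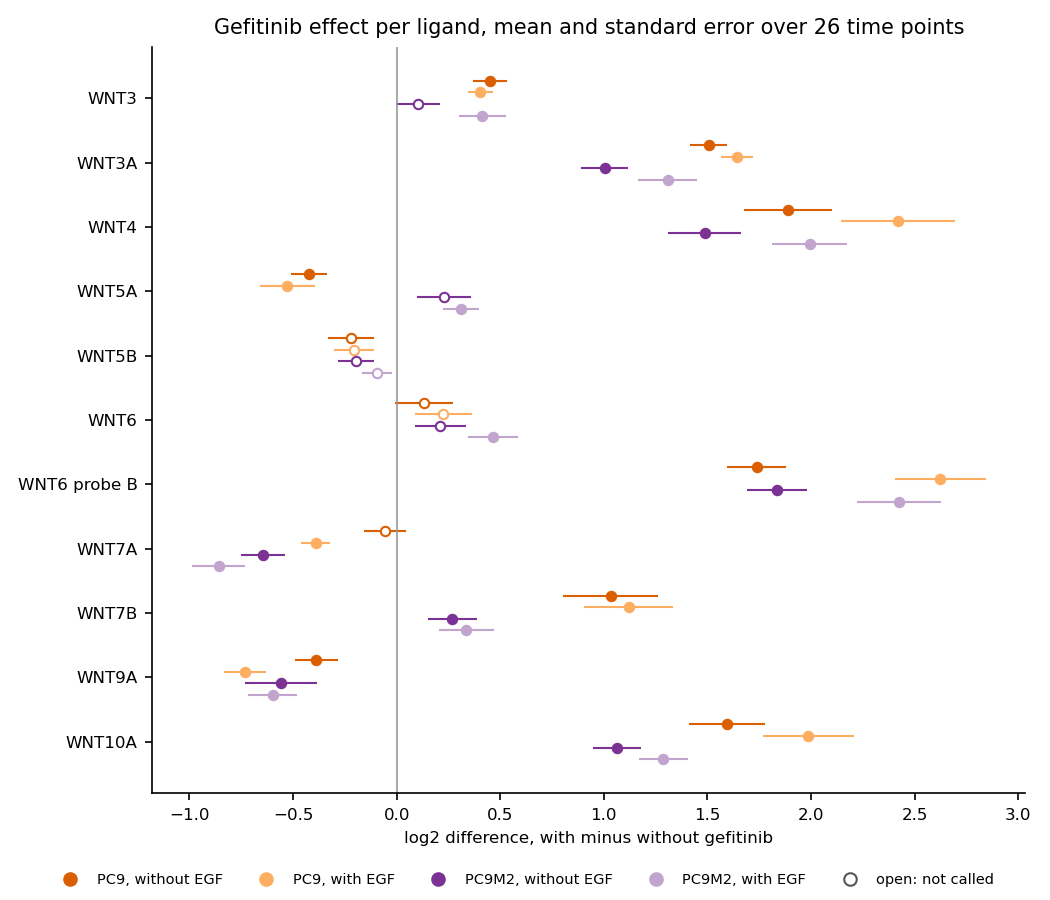
Mean log2 difference between arrays with and without gefitinib (x axis) for each ligand and for probe B of WNT6 (y axis), with bars of 1 standard error over 26 time points, in PC9 and PC9M2 with and without EGF. Filled points were called; WNT4, WNT10A, WNT3A and probe B of WNT6 lie between 1.00 and 2.62 in all 4 comparisons.

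Whether the lines differed in their response was tested on the difference of the gefitinib effects, PC9M2 minus PC9. Without EGF the response was smaller in PC9M2 for WNT10A (-0.53 ± 0.11), WNT4 (-0.40 ± 0.10), WNT3A (-0.50 ± 0.12), WNT7B (-0.76 ± 0.23) and WNT3 (-0.35 ± 0.14), and more negative for WNT7A (-0.59 ± 0.14), while that of WNT5A was higher (0.65 ± 0.16). These were 7 of the 10 ligands, 1 higher and 6 lower, against 34% of all tested genes, 17% higher and 16.9% lower, with adjusted p between 0.000402 for WNT10A and 0.0454 for WNT3. With EGF 6 were called (48.7% of all genes, 22.9% higher and 25.7% lower), the same ones except WNT3, and WNT5A had 0.84 ± 0.16 (adjusted p = 0.0001). None of these 13 calls held under every alternative: with time points 3 h apart 0 of the 7 and 2 of the 6 were called, and with the variance inflated for autocorrelation 3 and 2. Leaving out 0.5 h ended the call of WNT3 without EGF and of WNT3A with EGF. By probe B, WNT6 differed by 0.10 ± 0.09 without EGF (adjusted p = 0.415) and -0.20 ± 0.07 with it (adjusted p = 0.0282). On the other probe of WNT4 the difference was -0.35 ± 0.14 without EGF (adjusted p = 0.0469) and -0.19 ± 0.11 with it, not called (adjusted p = 0.164). The other probes of WNT10A (-0.52 and -0.63) and WNT7B (-0.80 and -0.62) were called without and with EGF.

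EGF, the ligand of EGFR, changed fewer ligand genes, all of them in the courses without gefitinib. In PC9 WNT4 fell by 0.47 ± 0.10 and WNT10A by 0.34 ± 0.06 on the log2 scale, at 22 of 26 time points each, while WNT7A rose by 0.28 ± 0.07 and WNT9A by 0.34 ± 0.11 (adjusted p = 0.00114, 0.000116, 0.00235 and 0.0174). These 4 of 10 ligands compare with 25.6% of all tested genes, 11.3% higher and 14.3% lower. In PC9M2, where 9.13% of all genes were called, 4.09% higher and 5.04% lower, WNT4 (-0.49 ± 0.08, 24 of 26 lower) and WNT10A (-0.17 ± 0.04, 22 of 26) fell and WNT7A rose (0.16 ± 0.05), with adjusted p of 0.000107, 0.00596 and 0.0357. By probe B, WNT6 fell too, with -0.86 ± 0.10 in PC9 and -0.55 ± 0.09 in PC9M2 (adjusted p = 5.16e-07 and 0.000184). All courses with and without EGF overlapped, and none of these calls of the 10 ligands was kept with time points 3 h apart or without pairing by time.

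With gefitinib present limma called 0 of 10 ligands for EGF in either line, and 0 had an unadjusted p below 0.05 or were called by the methods' paired t-test. In PC9 0.0452% of all tested genes were called there, and in PC9M2 3.21%. The largest difference among the ligands was that of WNT9A in PC9M2, 0.18 ± 0.10 (adjusted p = 0.339). The difference between the EGF effects with and without the drug was then tested itself, a test added after the data were seen. It was called for WNT4 (0.53 ± 0.11 in PC9 and 0.51 ± 0.08 in PC9M2, adjusted p = 0.0013 and 0.000249) and WNT10A (0.39 ± 0.07 and 0.22 ± 0.05, adjusted p = 0.000295 and 0.00502) in both lines. WNT7A was called in PC9 (-0.34 ± 0.10, adjusted p = 0.0191) and had -0.21 ± 0.08 in PC9M2 (adjusted p = 0.089), and WNT3 was called in PC9M2 (0.31 ± 0.09, adjusted p = 0.0327). Of all tested genes 13% were called in PC9 (8.47% higher, 4.58% lower) and 10.1% in PC9M2 (5.55% and 4.59%). None of these calls held under every alternative: with unpaired courses, 3 h spacing or the first 13 time points 0 ligands were called in either line. Without 0.5 h, WNT3A (0.38) and WNT7A (-0.26) were called as well in PC9M2, and WNT9A (-0.37) in PC9.

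Between the lines, WNT10A differed at every time point on the probe in use. Its untreated signals, between 8.79 and 9.74 (median 9.28) in PC9M2 against between 6.98 and 8.26 (median 7.74) in PC9, did not overlap, and neither did those with EGF, as for 4.76% and 4.84% of all tested genes. It was higher in PC9M2 at all 26 time points under each treatment, by 1.56 ± 0.07 without treatment (2.94-fold, adjusted p = 6.44e-18), 1.72 ± 0.09 with EGF, 1.03 ± 0.09 with gefitinib and 1.02 ± 0.09 with both (adjusted p = 2.22e-16, 6.31e-11 and 2.38e-11). On its other probe the differences were 1.03, 1.11, 0.50 and 0.48 in the same order (adjusted p = 8.55e-13, 8.89e-11, 0.0012 and 0.00315). On that probe PC9M2 was higher at 26, 25, 20 and 18 of 26 time points. The courses overlapped there without treatment (6.08 to 7.38 against 5.14 to 6.20 in PC9) and with EGF (5.90 to 7.22 against 4.40 to 7.36). WNT5A was higher as well, by 0.63 ± 0.13 without treatment, 0.27 ± 0.11 with EGF, 1.28 ± 0.15 with gefitinib and 1.11 ± 0.17 with both (adjusted p = 0.000105, 0.0334, 1.43e-08 and 1.54e-06), with overlapping courses. The WNT5A call with EGF was lost under 6 of 19 alternatives.

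WNT9A was lower in PC9M2 under every treatment. The differences were -1.38 ± 0.15 without treatment (25 of 26 time points lower), -1.51 ± 0.17 with EGF (26 of 26), -1.55 ± 0.22 with gefitinib and -1.37 ± 0.18 with both (23 of 26 each), which is 2.61-fold without treatment (adjusted p = 4.57e-09, 7.89e-09, 3.09e-07 and 1.56e-07). Normexp brought the difference without treatment to -0.43. The call with both agents was lost when the variance was inflated for autocorrelation.

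WNT6 was lower by probe A as well, with -1.23 ± 0.37 without treatment (adjusted p = 0.00473), but this rested on 10 to 15 h. The difference averaged -4.31 over these 6 time points and -0.31 over the other 20, and no call of probe A between the lines was kept without them. On probe B the differences were -0.83 ± 0.12 without treatment, -0.73 ± 0.10 with gefitinib, -0.52 ± 0.09 with EGF and -0.72 ± 0.09 with both (adjusted p = 2.59e-07, 1.29e-07, 1.8e-05 and 3.47e-08), lower at 25, 25, 23 and 24 of 26 time points. With both agents the probe A difference outside 10 to 15 h was 0.03.

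WNT4 and WNT3A were lower in PC9M2 with gefitinib. WNT4 was lower in PC9M2 with gefitinib (-0.55 ± 0.08, adjusted p = 9.45e-07) and with both agents (-0.59 ± 0.09, adjusted p = 1.08e-06), while without treatment the difference was -0.15 ± 0.09 (adjusted p = 0.142) and with EGF -0.17 ± 0.11 (adjusted p = 0.181). On its other probe WNT4 was called lower in PC9M2 without treatment and with EGF as well, with -0.33 ± 0.11 and -0.44 ± 0.10 (adjusted p = 0.0127 and 0.000399). WNT3A was lower with gefitinib (-0.74 ± 0.11), with both (-0.71 ± 0.09) and with EGF (-0.37 ± 0.14), with adjusted p of 6.84e-07, 1.02e-07 and 0.0184, and had -0.24 ± 0.13 without treatment (adjusted p = 0.0977), which became -0.29 and called (adjusted p = 0.038) without 0.5 h. WNT7A was lower under all 4 treatments, from -0.25 ± 0.11 without treatment to -0.84 ± 0.14 with gefitinib (adjusted p = 0.0455 and 6.42e-06), and the call without treatment was lost under 9 of 19 alternatives, among them the run without 0.5 h. WNT5B was lower by 0.22 to 0.25 under 3 treatments, and WNT3 was higher without treatment (0.53 ± 0.15, adjusted p = 0.0026) and with EGF (0.32 ± 0.12, adjusted p = 0.025). From 10 to 15 h the WNT3 difference was -0.29 without treatment against 0.78 at the other times, -0.44 against 0.55 with EGF, -1.07 against 0.56 with gefitinib and -0.90 against 0.70 with both. Without this window WNT3 was called higher under all 4 treatments, and the WNT7A calls without treatment and with EGF were lost. WNT7B was higher with EGF alone (0.47 ± 0.16, adjusted p = 0.00952), a call lost under 8 of 18 alternatives. On its other probe this difference was 0.35 ± 0.18 and not called (adjusted p = 0.0835).

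In counts, 3 ligands were higher and 4 lower in PC9M2 without treatment, against 68.1% of all genes called, 31.1% higher and 37% lower. With gefitinib the counts were 2 and 6 (64.9% of all genes, 30.7% higher and 34.3% lower), with EGF 4 and 5 (69.8%, 32.8% higher and 37% lower) and with both 2 and 5 (67.7%, 31.5% higher and 36.2% lower). Again the share of ligands called was near that of all genes. WNT10A and WNT5A were higher under all 4 treatments, as were 22.6% of all genes, and WNT6, WNT7A and WNT9A were lower under all 4, as were 25.3%, although every WNT6 call (probe A) and the WNT7A calls without treatment and with EGF were lost without 10 to 15 h. Scan day as a random block left 4 of the 7 calls without treatment and 2 of the 9 with EGF.

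**Figure D5:**
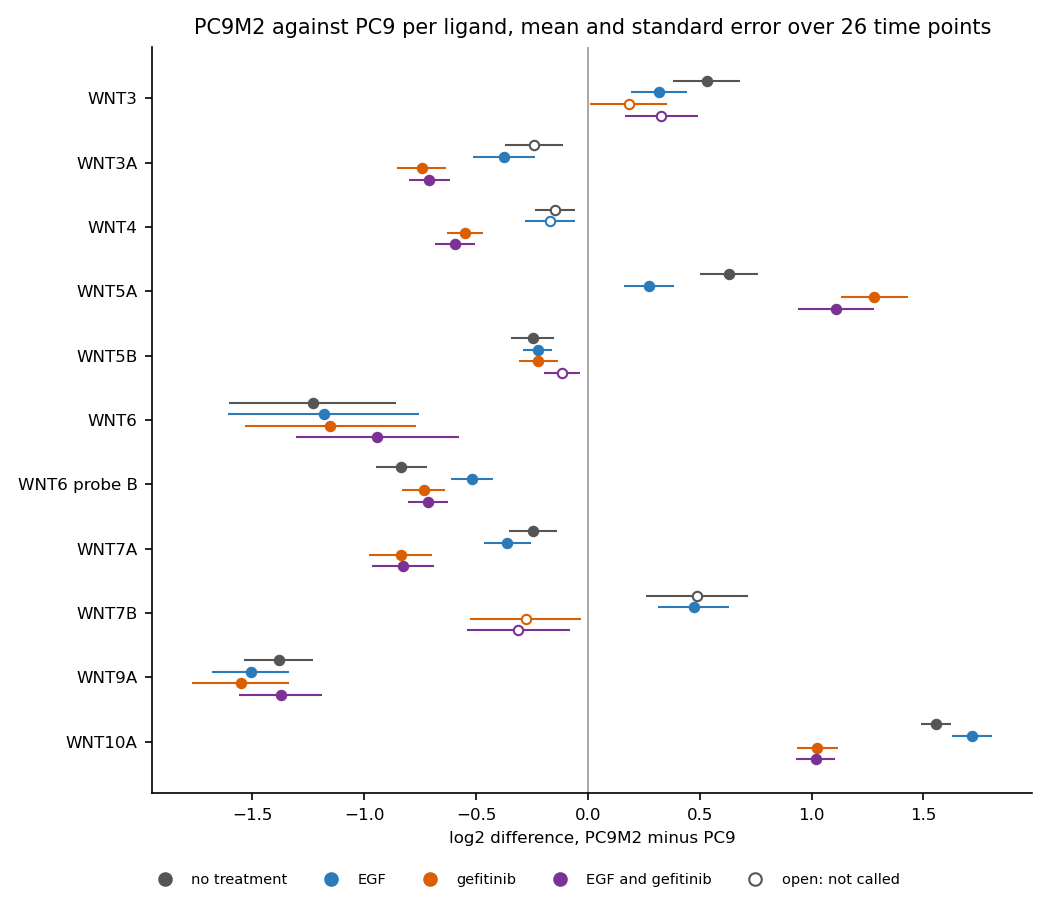
Mean log2 difference between PC9M2 and PC9 (x axis) for each ligand and for probe B of WNT6 (y axis), with bars of 1 standard error over 26 time points, under each of the 4 treatments. Filled points were called; WNT10A lies between 1.02 and 1.72 and WNT9A between -1.55 and -1.37.

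The order of the 8 courses differed between the ligands. WNT10A was highest in PC9M2 with both agents (mean 10.37) and with gefitinib (10.32), which did not differ beyond their spread. PC9 with both agents (9.35), PC9 with gefitinib (9.30) and untreated PC9M2 (9.26) followed with no call between neighbours, then PC9M2 with EGF (9.08), untreated PC9 (7.70) and PC9 with EGF (7.37), each lower than the one before (adjusted p of these neighbours between 2.66e-15 and 0.00596). Untreated PC9M2 and PC9 with gefitinib differed by 0.04 (adjusted p = 0.853) on the probe in use. On the other probe of WNT10A their means lay further apart, at 6.72 and 7.18. WNT4 and WNT3A instead followed the drug first and the line second: the highest were both PC9 courses with gefitinib, then both PC9M2 courses with gefitinib, with a call between these pairs and below them. For WNT9A all PC9 courses (6.69 to 7.42) lay above all PC9M2 courses (5.13 to 5.91), and for WNT5A all PC9M2 courses (7.99 to 8.39) above all PC9 courses (7.11 to 7.72). The neighbours of WNT5B and of probe A of WNT6 did not differ beyond their spread at any step.

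Many ligands changed over the 24 h without treatment. A spline over the 26 time points passed limma's F-test for 6 of 10 ligands in PC9 (66.3% of all genes) and 8 in PC9M2 (67.2%). WNT4 had a fitted range of 1.56 in PC9 and 1.30 in PC9M2 (adjusted p = 2.97e-05 and 2e-07), with medians going from 8.20 to 6.83 and from 7.88 to 6.76 between the first and last window. WNT10A had ranges of 0.95 and 0.63 (adjusted p = 5.05e-05 and 0.000298). The range of 4.52 for probe A of WNT6 in PC9M2 is the fall at 10 to 15 h described above. WNT3 and WNT3A passed in neither line, although WNT3 passed in PC9M2 without 0.5 h (1.12, adjusted p = 0.0418). Adjacent time points were scanned on the same day, so a change over time and a change between scan days cannot be fully told apart.

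Across arrays of the same slide, WNT4 and WNT10A rose and fell together, with Pearson's r of 0.99 in PC9 and 0.97 in PC9M2 over 104 arrays each, after the mean of each slide was taken off. Probe B of WNT6 went with both, at r of 0.95 and 0.97 with WNT4 and 0.95 and 0.98 with WNT10A. WNT7A and WNT9A also went together, with r of 0.71 and 0.82. These points share slides and treatments, and the values are descriptions. Over all 208 arrays the tested genes most like WNT4 were FAM78A (r = 0.96) and RIMBP3 (0.93), and those most like WNT10A were IP6K2 and IFT43 (both 0.96). WNT3A was most like IL22RA1 (0.90) and ZNF446 (0.87), WNT9A most like ARHGEF4 (0.90) and DYSF (0.87), and WNT5A most like TRAPPC10 (0.80) and PLPP6 (0.77). For WNT3 (CBX1 0.81, SLX4IP 0.77), WNT5B (ATF5 0.74, FTSJ1 0.73) and WNT7B (TOP3B and FAAH, both 0.74) the nearest genes were less alike.

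The genes that make, carry and inactivate Wnt ligands were counted alongside. Of 11 listed, 10 were tested, and in PC9 without EGF 2 rose and 3 fell: GPC4, a glypican that holds ligands at the surface (1.11), and PORCN (0.24) rose, and the retromer subunits VPS26A (-0.51) and VPS35 (-0.25), which return WLS to the Golgi, and the deacylase NOTUM (-0.17) fell, while 72.3% of all tested genes were called there. The others were WLS (-0.17), the retromer subunit VPS29 (-0.09), the cargo receptors TMED2 (-0.07) and TMED5 (-0.03), and TRABD2A, a protease that cleaves Wnt ligands (-0.48). In PC9M2 GPC4 rose (0.78) and TRABD2A (-0.61), VPS26A (-0.22) and VPS29 (-0.21) fell, with 66.7% of all genes called. Between the untreated lines TRABD2A (1.39), PORCN (1.07) and GPC4 (0.39) were higher in PC9M2 and WLS (-0.41), NOTUM (-0.38) and VPS26A (-0.18) lower, with 68.1% of all genes called. TRABD2A was well above background on 118 of 208 arrays, with a mean of 3.53 in PC9. The median over the list was -0.13 in PC9 and -0.06 in PC9M2 with gefitinib, against -0.02 and -0.01 over all tested genes.

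Among Wnt receptors and co-receptors, 15 of 18 were tested. Gefitinib raised 5 and lowered 7 in PC9 (72.3% of all genes called, 35.1% higher and 37.2% lower), the largest being ROR1, a receptor of WNT5A, at -1.20 and PTK7, a co-receptor of planar cell polarity, at 1.08. In PC9M2 it raised 8 and lowered 5 (66.7% of all genes, 32.6% higher and 34.2% lower), with ADGRA2, a co-receptor for WNT7A and WNT7B, at 0.91 and FZD2 at 0.83. Without treatment 5 receptors were higher and 4 lower in PC9M2 (68.1% of all genes called), led by FZD4 at -1.58 and ADGRA2 at -0.90. ADGRA2 was well above background on 91 of 208 arrays. The median receptor difference with gefitinib was -0.23 in PC9 and 0.36 in PC9M2.

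Secreted antagonists and the receptors that mediate them showed their largest differences between the lines. Of 15 listed, 8 were tested, and 6 were higher and 1 lower in untreated PC9M2 (68.1% of all genes called, 31.1% higher and 37% lower), led by DKK3 at 3.34 and DKK1, which blocks LRP5 and LRP6, at 1.70. DKK3 was well above background on 122 of 208 arrays, with a mean of 2.91 in PC9, so its difference starts near background. FRZB was well above background on 127 arrays and SOST on 52. The median of the list between the untreated lines was 0.80, against -0.05 over all tested genes. With gefitinib 2 rose and 2 fell in PC9 (FRZB -1.11, DKK3 0.91; 72.3% of all genes called), and 1 rose and 3 fell in PC9M2 (SOST -1.21, KREMEN2 -0.69; 66.7%). Of the R-spondin axis, which sets how many receptors stay at the surface, 3 of 9 genes were tested, and the receptor-removing ligase ZNRF3 had differences of -2.22 in PC9 and -1.06 in PC9M2 with gefitinib, both called. Its homologue RNF43 rose in PC9M2 (0.66), and ZNRF3 was lower in untreated PC9M2 (-0.32).

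Of 12 genes that β-catenin commonly induces, 9 were tested. With gefitinib 3 rose and 4 fell in PC9 (72.3% of all genes called), the largest being AXIN2 at 2.82 and CCND1, the cell cycle gene cyclin D1, at -1.80. In PC9M2 2 rose and 3 fell (66.7%), with AXIN2 at 2.96 and MYC at -1.19. Between the untreated lines 2 were higher and 3 lower in PC9M2 (68.1%), led by NKD2 (-1.58) and LEF1 (1.51), a nuclear partner of β-catenin. The list's median with gefitinib was -0.01 in PC9 and 0.12 in PC9M2. Of 19 transducers of β-catenin-independent signalling, 16 were tested. Gefitinib raised 7 and lowered 2 in PC9 (72.3% of all genes called) and raised 5 and lowered 2 in PC9M2 (66.7%), led in both by the planar cell polarity cadherin CELSR2 (2.78 and 1.73) and the phospholipase PLCB1 (1.71 and 1.05). Between the untreated lines 6 were higher and 3 lower (68.1%), with PRICKLE2 at -2.07 and PLCB1 at 1.55.

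The other 9 Wnt ligand genes on the array were mostly close to background. WNT11 was well above it on all 208 arrays, WNT2B on 130 and WNT10B on 97, and these 3 were tested. WNT1 was so on 45 arrays, WNT9B on 40, WNT8A on 20, WNT8B on 4, WNT2 on 1 and WNT16 on 0.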

How the data were processed

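RNA of 208 samples was measured on 1-colour Agilent whole genome arrays. The authors deposited signal intensities as the scanner software wrote them, with local background subtracted and spatial trends removed and no normalization between arrays, and a table in which they had quantile normalized these intensities over all 45015 features.

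Here the deposited intensities of 43376 spots other than controls were quantile normalized, floored at 1 and taken to log2. Outlier-flagged spots were left out (0.0793% of tested values) and spots of a probe averaged. A symbol was found by accession for 24794 of the 41000 probes and not for 16206. For the 6040 genes with several probes, that with the largest variance was used, as in the study's methods. Genes well above background on under 13 arrays of every course (3698 of 16961) were left out. Differences at matched time points were tested two-sided with limma 3.58.1 (R 4.3.3), trends with a slope and change over time with a natural spline of 4 degrees of freedom, with Benjamini-Hochberg adjustment over 13263 genes at 0.05. The tests were checked on simulated data with independent time points, which cannot show how they behave where neighbouring time points are correlated. A paired t-test, named in the study's methods, was an alternative.

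The p-values measure the spread between time points, which were not independent: lag-1 correlations of the ligands' differences reached 0.87. The number of arrays limits the precision. The ligands and gene lists were chosen with earlier results of these data known. All 10 ligands were named, the 2 most alike genes of each (those of WNT7A are not reported here), and of a list the 2 called members with the largest difference (all tested members for acylation and transport). The files use hg18, so promoters come from RefSeq's GRCh38.p14 and no probe position is given. Alternatives were 75th percentile scaling, normexp on the median signal, the series table, other choices of probe, filter and floor, spline replacement of outlying points, the paired t-test and a one-sided test, unpaired courses, 3 h spacing, inflated variance, either 13 time points and scan day as a block.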

Additional observations from a re-analysis of the deposited data

Results flagged for a closer look

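The gefitinib effect differed between PC9M2 and PC9 by limma's test of the difference itself for 7 ligands. For WNT10A it was -0.53 without and -0.70 with EGF (log2, PC9M2 minus PC9, lower at 23 and 19 of 26 time points), for WNT4 -0.40 and -0.43, and for WNT3A -0.50 and -0.33. On the other probe of WNT4 it was -0.35 without EGF and -0.19 with EGF, the latter not called. For WNT7A it was -0.59 and -0.47, and for WNT7B -0.76 and -0.78. For WNT5A it had the other sign, 0.65 and 0.84, and for WNT3 it was called without EGF only (-0.35).

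The probe of WNT6 that the gene's value does not rest on was higher with gefitinib in comparisons where the probe in use was not called: 1.74 in PC9 without EGF, 2.62 in PC9 with EGF and 1.84 in PC9M2 without EGF (log2). No explanation was weighed for these results.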

How the results depend on the processing

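Of 3768 single values recomputed under the alternatives, 3366 kept their direction and side of the threshold, 297 lost a call, 93 gained one and 12 changed sign. Of 398 counts 343 stayed within 1.5 times and 55 did not. No scaling moved the median of all genes by over 0.1. The cause of a change was not tested. Numbers of ligands called are given below, with the value reported above in brackets.

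Between the lines, time points 3 h apart gave 3 without treatment (7) and 4 with EGF (9), the variance inflated for autocorrelation 4 (7), 3 (9) and, with both agents, 4 (7), and scan day as a random block 4 (7) and 2 (9). With EGF, the last 13 time points gave 5 (9), as did the runs without 10 to 15 h. For gefitinib without EGF, 3 h spacing gave 4 in PC9 (7), and the inflated variance and the first 13 time points 3 each in PC9M2 (6). With EGF the first 13 gave 4 in PC9M2 (9).

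For EGF without gefitinib, unpaired courses and 3 h spacing gave 0 in PC9 (4) and 0 in PC9M2 (3), the first 13 time points 1 and 1, and in PC9M2 the last 13 and the inflated variance gave 1 and spline replacement of outlying points 5. With gefitinib in PC9M2, 3 h spacing gave 1 (0). For the difference of the EGF effects, unpaired courses, 3 h spacing and the first 13 gave 0 in both lines (3 and 3), the last 13 gave 1 in PC9M2, the mean of all probes 5 in PC9 and the run without 0.5 h 5 in PC9M2.

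For the difference of the gefitinib effects without and with EGF (7 and 6), unpaired courses gave 3 and 2, 3 h spacing 0 and 2, the inflated variance 3 and 2, the first 13 time points 0 and 2, scan day as a block 2 and 2, and leaving out 10 to 15 h 4 and 3. Normexp gave 4 without EGF. For the trend of the gefitinib effect in PC9 (5), 3 h spacing gave 2, the first 13 gave 3 and the last 13 gave 1. In PC9M2 (6), unpaired courses and the inflated variance gave 3 and the first 13 gave 2. For the change over time without treatment, 3 h spacing and the last 13 gave 0 in PC9 (6) and 1 in PC9M2 (8).

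The sign changed with the first 13 time points for WNT3A between the lines with EGF (0.12, from -0.37), for WNT9A with gefitinib without EGF in PC9M2 (0.049, from -0.56), for WNT4 in the difference of effects with EGF (0.19, from -0.43), and for the trends of WNT7A in PC9 (0.076, from -0.01) and of WNT3 (-0.070, from 0.05) and WNT3A (-0.023, from 0.04) in PC9M2. With the last 13 it changed for the PC9M2 trends of WNT4 (-0.0080, from 0.10), WNT7A (0.021, from -0.05) and WNT9A (0.14, from -0.06). On the other probe, WNT6 changed sign in the difference of effects with EGF (-0.20, from 0.24) and in the PC9 trend (0.060, from -0.03), and without 10 to 15 h between the lines with both agents (0.034, from -0.94).

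The runs without 0.5 h and without 10 to 15 h were chosen after seeing the data. All differences were paired by time point, and the labels give no replicate numbers for a further block. The order of levels was not run under normexp, spline replacement, the filter on all 26 arrays, scan day as a block or without 10 to 15 h. WNT3A and the WNT7B probe in use lay near background on many arrays, and WNT9A did on some PC9M2 arrays with gefitinib. Among the listed genes named above, TRABD2A, ADGRA2, DKK3, FRZB, SOST, RNF43 and MYC lay near background on many arrays too.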
